A study of Homo sapiens with 24 samples.

Results

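The comparison of total RNA with cytoplasmic RNA in A-431 cells used 8 of the 24 sequenced libraries, 4 of each fraction, chosen by the cell line and fraction that the labels give. A-431 is a human epidermoid carcinoma line known for an extra load of EGF receptor. Total RNA came from whole cells and cytoplasmic RNA from cells lysed with the nuclei left behind, and both were sequenced as poly(A)-selected RNA on an Illumina instrument. The other 16 libraries are the same fractions of U-251MG, a glioma line, and U-2 OS, an osteosarcoma line, and serve here only to test where A-431 differs from them. The labels name no treatment. The 4 total RNA libraries of A-431 (numbered 9 to 12) held 24130875 to 32345513 counts in genes, and the 4 cytoplasmic libraries (21 to 24) held 28858299 to 32394170. The study grew 4 biological replicates of each line, but the labels do not tie a library to a culture, so p-values measure the spread between these libraries. In such bulk RNA, fewer copies in each cell and fewer cells that hold a transcript cannot be told apart. All A-431 total libraries ran on one flow cell and all A-431 cytoplasmic libraries on another, so fraction and flow cell cannot be told apart.

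A poly(A)+ messenger RNA is made and spliced in the nucleus and then exported through the nuclear pore. Whole-cell RNA therefore holds nuclear and cytoplasmic copies of a transcript, and a cytoplasmic extract should hold few of the nuclear ones. Messages for secreted and membrane proteins are translated on the endoplasmic reticulum (ER), and some other messages travel with the cytoskeleton. A few long noncoding RNAs stay in the nucleus, among them NEAT1, the scaffold of paraspeckles, and MALAT1, a resident of nuclear speckles.

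The fraction labels were checked first against these nuclear RNAs, which were not higher in total RNA. NEAT1 stood at 183, 175, 318 and 178 CPM (gene counts scaled to library size) in the 4 total libraries and at 622, 672, 761 and 678 in the 4 cytoplasmic libraries. It was thus higher in every cytoplasmic library (log2 ratio -1.68 ± 0.22 (SE), adjusted p = 0.00077, from edgeR's quasi-likelihood test with Benjamini-Hochberg adjustment, as are the adjusted p-values of genes below). A ratio is total over cytoplasmic throughout, so a negative log2 ratio is a higher level in cytoplasmic RNA, and a gene was called differentially detected at an adjusted p under 0.001. MALAT1 stood at 8.33, 8.26, 18.3 and 11.6 CPM in total RNA and 29.03, 34.6, 38.3 and 24.5 in cytoplasmic RNA, without overlap but short of the threshold (log2 ratio -1.42 ± 0.29, adjusted p = 0.0055). NEAT1 lost its call when any 1 library other than total 11 was left out (log2 ratios kept their sign). A list named nuclear-retained lncRNAs had 10 tested members, whose place in A-431 cells was not measured. Of these, NEAT1 was called higher in cytoplasmic RNA and OIP5-AS1 higher in total RNA (56.7 to 68.9 against 43.9 to 50.9 CPM). That is 10% of the list in each direction, near the 9.51% and 10.2% over all genes. The 10 summed to 268 to 434 CPM in total and 745 to 894 in cytoplasmic RNA. NEAT1 made up most of this sum in every library, so the sum says little about the others. Below, cytoplasmic RNA means the libraries so labelled.

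Reads that did not lie wholly within annotated exons were also more frequent in cytoplasmic RNA. They made up 14.6, 14.7, 15.1 and 14.7% of gene-or-no-gene reads in total RNA and 16.4, 16.5, 17.3 and 15.96% in cytoplasmic RNA (exact permutation test over libraries, two-sided p = 0.0286, the smallest that 4 against 4 can give). Reads that match introns count here, as do reads beyond annotated gene ends and reads only partly within an exon. Marker levels went with the line as labelled. The 24 epidermoid markers of A-431, 22 of them tested, summed to 20416 to 22864 CPM in total RNA and 17906 to 18713 in cytoplasmic RNA. Most of this sum was EGFR in every library. The sums were at most 70.5 CPM for 11 glial and neural markers and 46.3 for 11 osteoblast and mesenchymal markers. Each of the latter lists had 1 marker at 0 in all 8 libraries. The epidermoid sum was itself lower in every cytoplasmic library, and 10 of its 22 tested members were called higher in total RNA and 0 lower. EGFR, the receptor itself, took 1.61, 1.52, 1.46 and 1.66% of gene counts in the total libraries and 1.29, 1.29, 1.34 and 1.34% in the cytoplasmic ones.

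Of 16376 expressed genes tested, 1677 (10.2%) were called with the higher level in total RNA. On the cytoplasmic side 1557 (9.51%) were called, which makes 19.7% in both directions. The differences in total RNA were small, with a median log2 ratio of 0.38 among called genes and only 12 genes at 2-fold or more. The cytoplasmic side was wider, with a median of 0.56 (as a size) and 277 genes at 2-fold or more. The called coding genes also differed in level, with a median log2 CPM of 6.54 higher in total and 4.43 higher in cytoplasmic RNA. The sizes of both sides were thus not compared at like levels. Genes whose 4 total libraries all lay above the 4 cytoplasmic ones made up 23.7% of those tested, and 21.7% lay wholly below. The counts depended on single libraries: without total 9 they were 902 and 913, without total 12 they were 1005 and 918, and without cytoplasmic 22 the count higher in total RNA was 1071. After an adjustment of each library for the G+C content of transcripts the counts were 908 (5.54%) and 586 (3.58%), 9.12% in all, of which 554 and 462 were among the genes called without it.

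**Figure D1:**
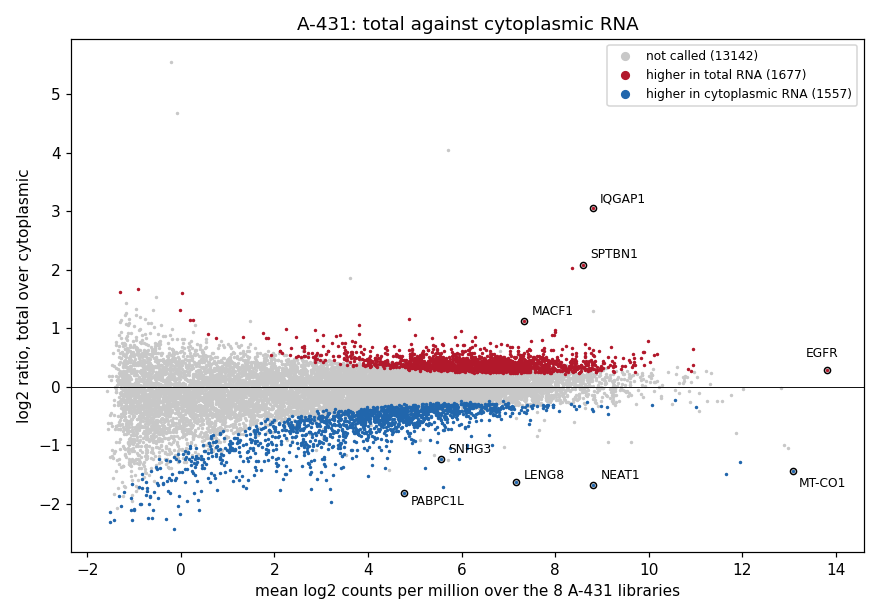
Each point is one of 16376 genes in A-431, with its mean log2 CPM over 8 libraries on the x axis and its log2 ratio of total over cytoplasmic RNA on the y axis. The 1677 genes called higher in total RNA lie mostly close to the line, with IQGAP1 and SPTBN1 far above it, while the 1557 called higher in cytoplasmic RNA spread more widely below.

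Among the largest ratios in total RNA were those of genes of the cell cortex and membrane skeleton. IQGAP1, a scaffold that binds actin at the cell edge, stood at 805, 756, 763 and 856 CPM in total RNA and 95.2, 81.4, 102 and 106 in cytoplasmic RNA. That is 8.27-fold higher in total RNA (log2 ratio 3.05 ± 0.076 (SE), adjusted p = 2.2e-14), the largest ratio among the called protein-coding genes of at least 3 log2 CPM. SPTBN1, the beta-spectrin that ties the membrane to actin, was at 621, 632, 521 and 713 CPM against 137, 133, 171 and 143 (log2 ratio 2.09 ± 0.090 (SE), adjusted p = 7.6e-11). The fractions did not overlap for either gene. MACF1, which joins microtubules to actin, was at 219, 198, 182 and 290.2 CPM against 87.8, 93.1, 113 and 114 (log2 ratio 1.12 ± 0.15 (SE), adjusted p = 0.00035), and its call was lost without total 9 or total 10 and without cytoplasmic 21, 22 or 24. SPTAN1, the alpha-spectrin partner, was at 331, 329, 274 and 402 CPM against 179, 171, 172 and 180.4 (log2 ratio 0.93 ± 0.082 (SE), adjusted p = 4.5e-07). DST, the hemidesmosomal plakin dystonin, was at 339, 278, 279.8 and 444 CPM against 160.3, 171, 192 and 164 (log2 ratio 0.96 ± 0.14 (SE), adjusted p = 0.00048). Both plakins were highest in total 12, and DST lost its call without total 9 or cytoplasmic 21, 22 or 24.

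A list of spectrins, plakins, filamins and myosins also holds other genes, among them IQGAP1 and AHNAK, and was chosen with earlier results of these data known. Of its 38 tested members, 14 (36.8%) were called higher in total and 2 (5.26%) in cytoplasmic RNA, against 10.2% and 9.51% of all genes. The median log2 ratio was 0.21 against -0.011 over all genes. The 14 include IQGAP1, described above, so the count is not separate from it. FLNA, the most abundant filamin message by CPM, was at 2361, 2731, 1899 and 2577 CPM against 1537, 1435, 1564 and 1568 (log2 ratio 0.65 ± 0.084 (SE), adjusted p = 1.5e-05). Not every large gene of the list was called. MYH9, nonmuscle myosin heavy chain, ranged from 1289.5 to 1712 CPM in total RNA and from 1611 to 1696 in cytoplasmic RNA (log2 ratio -0.10 ± 0.071, adjusted p = 0.23). AHNAK, a giant scaffold protein, ranged from 1362 to 2192 and from 1295 to 1459 CPM. Its log2 ratio was 0.34 ± 0.11, short of the threshold (adjusted p = 0.017). After the G+C adjustment the list held 11 higher and 0 lower. Over all genes the adjusted shares were 5.54% and 3.58%, against which the adjusted counts of the lists below also stand.

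Other genes among the 12 largest ratios in total RNA were TAOK1, a kinase of microtubule dynamics, at 82.1, 75.8, 78.8 and 96.0 CPM against 42.5, 45.7, 42.2 and 42.0 (log2 ratio 0.95 ± 0.069 (SE), adjusted p = 8.7e-08), and CD109, a GPI-anchored surface protein, at 337, 284, 337 and 347 CPM against 180.3, 173, 188 and 167 (log2 ratio 0.88 ± 0.064 (SE), adjusted p = 7.7e-08). ASPM, a spindle-pole protein, was at 279.9 to 353 CPM against 158 to 186 (log2 ratio 0.89). SYT16, REL and ZBTB41 were in the same group at log2 ratios of 1.06, 0.90 and 0.89. REL is an NF-kappaB subunit. The most abundant genes that were higher in total RNA by CPM, which is not corrected for length, were EGFR at 16221, 15409, 14909.8 and 16995 against 12816, 12850.4, 13318 and 12944 (log2 ratio 0.29 ± 0.057 (SE), adjusted p = 0.00053), FLNA, HSP90AA1, MAL2, YWHAZ and CANX, with log2 ratios of 0.28 to 0.65. EGFR lost its call without total 9 or 12 or cytoplasmic 21, 22 or 23, MAL2 without total 9, 11 or 12 or cytoplasmic 22 or 23, and YWHAZ without any of these 6.

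**Figure D2:**
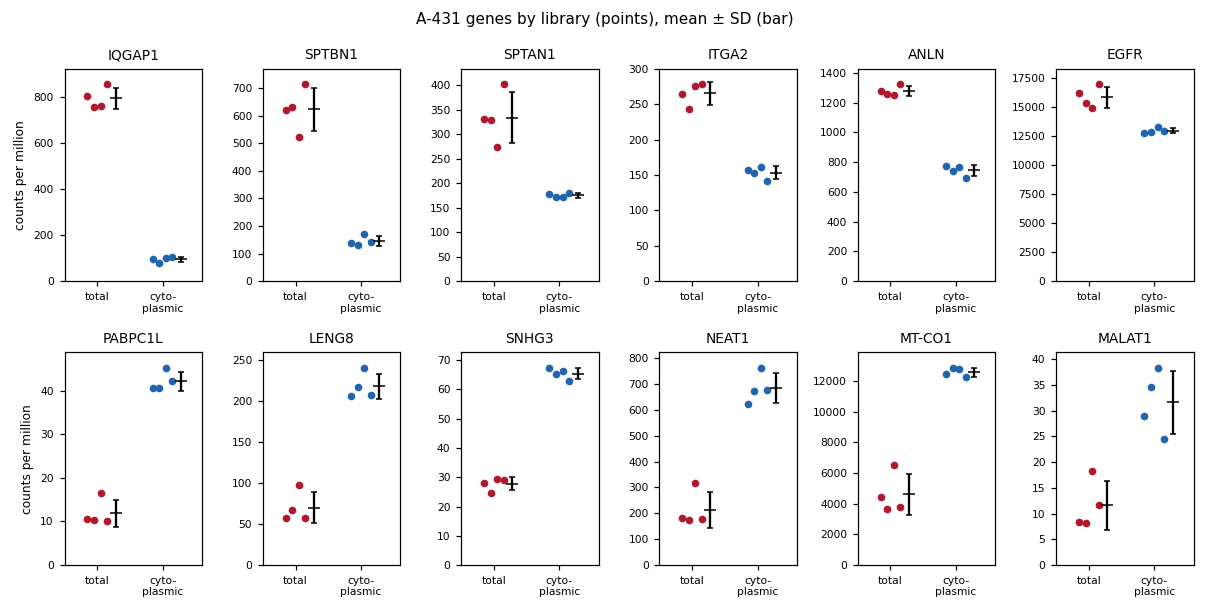
CPM of 12 genes in each of the 4 total and 4 cytoplasmic A-431 libraries, with the mean and SD beside the points and each y axis starting at 0. The top row holds genes higher in total RNA, from IQGAP1 at 756 to 856 against 81.4 to 106 to EGFR, and the bottom row genes whose cytoplasmic libraries all lie higher (MALAT1 was not called), where total 11 lies above the other total libraries for NEAT1 and PABPC1L.

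Some genes of cell adhesion to the matrix and to neighbouring cells were called higher in total RNA, and most were not called. In the hemidesmosome, integrin and laminin list, 12 of 26 tested members were called higher in total and 0 in cytoplasmic RNA, with a median log2 ratio of 0.41, and after the G+C adjustment 15 higher and 0 lower. ITGA2, the collagen-binding integrin alpha chain, was at 265, 243, 275 and 278 CPM against 158, 153, 162 and 141 (log2 ratio 0.79 ± 0.059 (SE), adjusted p = 9.4e-08). Its beta partner ITGB1 was at 1063 to 1198 CPM against 736 to 773 (log2 ratio 0.59). ITGA3 was not called, with a log2 ratio of -0.083 ± 0.066 and libraries that overlapped. After the G+C adjustment it was called higher in total RNA (log2 ratio 0.26, adjusted p = 0.00022). Among cell junction genes, 10 of 33 tested members were called higher in total and 1 in cytoplasmic RNA, with a median log2 ratio of 0.17. The desmosomal plaque protein DSP (732, 678, 614 and 871 CPM against 444, 429.6, 474 and 451, log2 ratio 0.69 ± 0.081 (SE), adjusted p = 5.9e-06) and the desmosomal cadherin DSG2 (525 to 563 against 345 to 359, log2 ratio 0.62) had the largest ratios of the list.

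Among ER translocation and folding genes, 21 of 56 tested members were called higher in total and 2 in cytoplasmic RNA, with a median log2 ratio of 0.23. DNAJC3, an ER co-chaperone, was at 50.2, 52.2, 56.8 and 50.3 CPM against 33.0, 34.2, 32.3 and 28.2 (log2 ratio 0.71 ± 0.069 (SE), adjusted p = 8.9e-07), and UGGT2, a glycoprotein folding sensor, had a log2 ratio of 0.64 ± 0.078. The calreticulin gene CALR, abundant in the same compartment, was at 1673 to 1933 CPM against 1526 to 1665 and was not called (adjusted p = 0.024). After the G+C adjustment CALR was called higher in total RNA (log2 ratio 0.32, adjusted p = 3.9e-05). Among COPI, COPII and Golgi genes, 14 of 46 tested members were called higher in total and 1 in cytoplasmic RNA, with a median log2 ratio of 0.17. The G+C adjustment left 2 higher and 0 lower, where the shares over all genes were 5.54% and 3.58%. LMAN1, a cargo receptor between ER and Golgi, was at 374 to 458 CPM against 262 to 294 (log2 ratio 0.58). Of the EGF receptor and ligand genes, 5 of 20 tested members were called higher in total and 0 in cytoplasmic RNA, with a median log2 ratio of 0.21. The sheddases that release EGF receptor ligands were both called: ADAM10 at 381, 365, 421 and 393 CPM against 261, 259, 269 and 264 (log2 ratio 0.57 ± 0.053 (SE), adjusted p = 6.9e-07) and ADAM17 with a log2 ratio of 0.51 ± 0.058.

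The list with the greatest share called belonged to chromosome structure. Among cohesin, condensin and SMC genes, which hold and compact chromosomes, 16 of 21 tested members were called higher in total and 1 in cytoplasmic RNA, with a median log2 ratio of 0.36. That is 76.2% of the list against 10.2% of all genes, and after the G+C adjustment the list held 5 higher and 0 lower of 21. The median transcript G+C of this list was 39.4%. SMC4, a condensin core subunit, was at 1198, 1096, 1308 and 1187 CPM against 955, 910.1, 950.5 and 770.1 (log2 ratio 0.42 ± 0.071 (SE), adjusted p = 0.00016), NIPBL, the cohesin loader, at 142 to 174 against 99.9 to 111, and ESCO2, which acetylates cohesin, at 119 to 129 against 69.7 to 90.8. Among mitotic kinesins and kinetochore genes, 14 of 48 tested members were called higher in total and 3 in cytoplasmic RNA, with a median log2 ratio of 0.18. ANLN, the cytokinetic scaffold anillin, was at 1277, 1259.8, 1249.5 and 1323 CPM against 777, 738, 767 and 695 (log2 ratio 0.78 ± 0.054 (SE), adjusted p = 3.7e-08). TPX2, a spindle assembly factor of similar abundance, differed less and was not called (916 to 941 against 768 to 816 CPM, adjusted p = 0.0014). Among chromatin regulators with long coding sequences, 18 of 49 tested members were called higher in total and 0 in cytoplasmic RNA, with a median log2 ratio of 0.19, with ATRX at a log2 ratio of 0.54 ± 0.077. Giant ubiquitin ligases and vesicle proteins had 17 higher and 3 lower of 42, among them VPS13C, a lipid transfer protein (log2 ratio 0.71), and on the other side NBEAL2 (-0.57). After the G+C adjustment the lists of mitotic genes, chromatin regulators and giant ligases held 8 higher and 2 lower, 10 higher and 0 lower, and 5 higher and 0 lower.

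**Figure D3:**
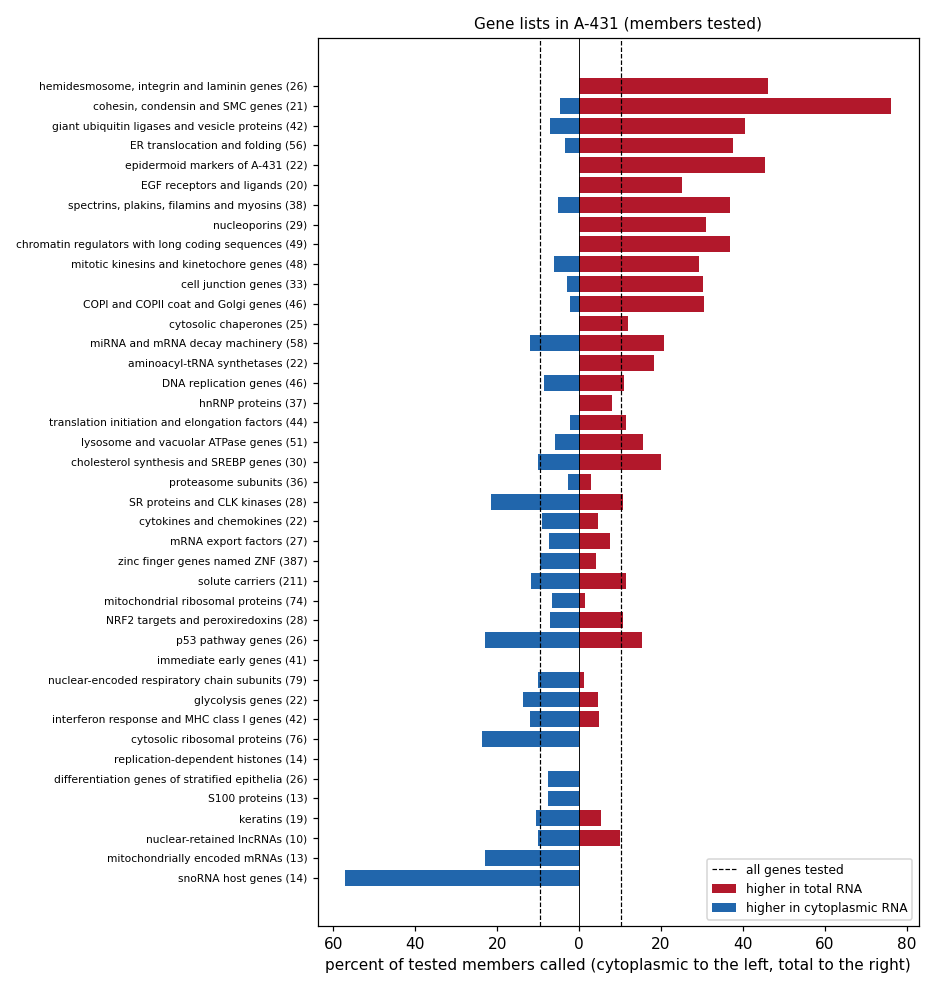
Percent of tested members called in A-431 for 41 gene lists with at least 10 tested members, ordered by median log2 ratio, with genes higher in cytoplasmic RNA drawn to the left and genes higher in total RNA to the right. The dashed lines mark the shares over all genes, 9.51% and 10.2%, and the cohesin list reaches furthest right while snoRNA host genes reach furthest left.

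On the cytoplasmic side, the coding genes with the 12 largest ratios ranged from low levels to the abundant mitochondrial messages given separately. PABPC1L, a poly(A)-binding protein first known from oocytes, was at 10.7, 10.4, 16.5 and 10.02 CPM in total RNA and 40.7, 40.6, 45.2 and 42.2 in cytoplasmic RNA. It was 3.50-fold higher in cytoplasmic RNA (log2 ratio -1.81 ± 0.12 (SE), adjusted p = 3.7e-08). LENG8 was at 57.6, 67.2, 97.0 and 57.3 CPM against 206, 217, 240.0 and 207 (log2 ratio -1.64 ± 0.17 (SE), adjusted p = 0.00011) and lost its call without total 10 or cytoplasmic 24. RNF207, a RING finger protein, was at 6.94, 7.67, 10.1 and 7.80 CPM against 22.4, 24.8, 24.6 and 22.2 (log2 ratio -1.52 ± 0.099 (SE), adjusted p = 3.7e-08). For PABPC1L and LENG8 the library total 11 was the highest of the total libraries. LIPG, an endothelial lipase, LTB4R, the leukotriene B4 receptor, GABBR1, a GABA-B receptor subunit, GSDMB, a gasdermin, and YJEFN3 had log2 ratios of -1.51, -1.45, -1.39, -1.34 and -1.35, from levels between 4.12 and 11.1 CPM in total RNA. RPL36A was called at -1.38, but the annotation holds 52 pseudogene copies of it, so its reads may be divided among them.

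Of 14 snoRNA host genes, whose introns carry small nucleolar RNAs, 8 were higher in cytoplasmic RNA and none in total RNA, with a median log2 ratio of -0.60. SNHG3 was at 24.7 to 29.6 CPM in total libraries and 62.7 to 67.3 in cytoplasmic ones (log2 ratio -1.23 ± 0.064 (SE), adjusted p = 1.4e-09), with no overlap. SNHG12 was at 23.8 to 33.7 CPM against 48.6 to 54.98 and GAS5 at 81.7 to 108 against 119 to 139. SNHG16 was not called, at 78.1 to 81.1 against 81.3 to 84.5 CPM. Over all 849 lncRNAs tested, 75 (8.83%, near the 9.51% over all genes) were higher in cytoplasmic RNA and 2 (0.236%, against 10.2%) in total RNA. Of 2099 processed pseudogenes, 152 (7.24%) were higher in total RNA and 33 (1.57%) lower, both below the shares over all genes; their reads can come from the parent gene.

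Splicing factors were called in both directions. Among SR proteins and CLK kinases, 3 of 28 tested members (10.7%, near the 10.2% over all genes) were called higher in total RNA. In cytoplasmic RNA 6 were higher (21.4%, against 9.51%), and the median log2 ratio was -0.021. SON, a large nuclear speckle protein, was at 529, 505, 478 and 563 CPM against 324, 335, 365 and 283 (log2 ratio 0.67 ± 0.071 (SE), adjusted p = 2.2e-06), while SRRM2, another speckle protein, was at 377, 370.4, 368 and 422 against 488, 504, 539 and 516 (log2 ratio -0.41 ± 0.057 (SE), adjusted p = 2.5e-05) and RSRP1 had a log2 ratio of -0.95 ± 0.13. DDX39B, an RNA helicase of mRNA export, was at 61.5, 59.6, 84.4 and 59.4 CPM against 129.7, 134, 148 and 119 (log2 ratio -0.9995 ± 0.10 (SE), adjusted p = 3.9e-06), and total 11 was again the highest of the total libraries. XPO1, the main nuclear export receptor for proteins, was higher in total RNA (629.7 to 697 against 464 to 559 CPM), though not without total 9 or 12. RSRP1 lost its call without cytoplasmic 24, and CNOT1, below, without total 9 or 12 or cytoplasmic 21, 22 or 23. In the mRNA decay list 12 of 58 were higher and 7 lower (20.7% and 12.1%, against 10.2% and 9.51% over all genes). Among them were the exonuclease XRN1 (0.52) and the deadenylase scaffold CNOT1 (0.32) in total RNA and TARBP2, a Dicer partner (-0.53), in cytoplasmic RNA. After the G+C adjustment the decay list held 4 higher and 1 lower and the SR and CLK list 1 higher and 8 lower. The adjusted shares over all genes were 5.54% and 3.58%. Of 22 cytokine and chemokine genes 2 (9.09%, near the 9.51% over all genes) were higher in cytoplasmic RNA and 1 in total RNA. The 2 were VEGFA and LIF. VEGFA was at 126 to 171 CPM against 203 to 218 and LIF at 39.1 to 42.1 against 56.4 to 64.5.

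Mitochondrially encoded messages were unequal. Their share of gene counts was 2.47, 2.22, 3.80 and 2.10% in the total libraries and 4.77, 5.36, 5.58 and 4.22% in the cytoplasmic ones (exact permutation test, two-sided p = 0.0286). MT-CO1, a catalytic subunit of cytochrome c oxidase, was at 4456, 3668, 6511 and 3804 CPM against 12439, 12850.1, 12809 and 12261 (log2 ratio -1.45 ± 0.17 (SE), adjusted p = 0.00015), and MT-CO3 and MT-CYB had log2 ratios of -1.28 and -1.50. The other 10 of 13 were not called, and MT-ND3 lay the other way at 620.4, 553, 884 and 497 against 193, 324, 433 and 92.5 CPM (log2 ratio 1.29 ± 0.49, adjusted p = 0.070). MT-CO1 lost its call without cytoplasmic 21 or 24, MT-CO3 without total 9 or any 1 cytoplasmic library, and MT-CYB without total 9 or 10 or any 1 cytoplasmic library. Total 11 had the highest share among the total libraries.

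Further lists are given as counts called higher in total and in cytoplasmic RNA. Nucleoporin genes had 9 and 0 of 29 (median log2 ratio 0.20), with RANBP2 at a log2 ratio of 0.48 ± 0.078, and 5 higher and 0 lower after the G+C adjustment. Over all genes the shares were 10.2% and 9.51%. Lysosome and vacuolar ATPase genes had 8 and 3 of 51 (15.7% and 5.88%). Solute carriers had 24 and 25 of 211 (11.4% and 11.8%), near the shares over all genes. Zinc finger genes named ZNF had 16 and 37 of 387 (4.13% and 9.56%), the latter near the share over all genes. The p53 pathway genes had 4 and 6 of 26 (15.4% and 23.1%), and 1 higher and 1 lower after the G+C adjustment. Proteasome subunits had 1 and 1 of 36, below the shares over all genes in both directions.

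In the translation apparatus, the cytosolic ribosomal protein genes were called on the cytoplasmic side only. Of 76 cytosolic ribosomal protein genes, 18 were higher in cytoplasmic RNA and none in total RNA, with a median of -0.16, and 58 were not called. RPS6 was at 914 to 947 CPM against 894 to 976 and RPL3 at 546 to 608 against 579 to 693, both uncalled. Translation initiation and elongation factors had 5 of 44 (11.4%, near the 10.2% over all genes) called higher in total and 1 in cytoplasmic RNA. Aminoacyl-tRNA synthetases had 4 (18.2%) and 0 of 22, and 1 higher and 0 lower after the G+C adjustment. Among nuclear-encoded respiratory chain subunits 8 of 79 (10.1%, near the 9.51% over all genes) were higher in cytoplasmic RNA and 1 was higher in total RNA; one of the 8 was NDUFS8 (log2 ratio -0.60 ± 0.082). GAPDH was at 2491, 2927, 2228 and 2714 CPM against 3037, 3087, 2942 and 3204 and missed the threshold (adjusted p = 0.0089). No member was called by edgeR in the 41 immediate early genes or the 14 replication-dependent histone genes, where DESeq2 called 1 and 0 and an unadjusted p under 0.05 was met by 2 immediate early genes higher in total RNA and 12 higher in cytoplasmic RNA, and by 3 histone genes, all higher in cytoplasmic RNA. Among 19 keratins 1 (5.26%, below the 10.2% over all genes) was called higher in total RNA. In cytoplasmic RNA 2 were higher (10.5%, near the 9.51% over all genes). KRT81 was higher in cytoplasmic RNA (2185 to 2617 against 1618 to 2041 CPM) and KRT10 in total RNA (30.2 to 36.05 against 22.9 to 26.01); the direction of KRT81 and of the chromatin protein gene HMGA1 turned after the G+C adjustment (G+C-adjusted log2 ratios of 0.044 and 0.064). KRT81 lost its call without total 9, 11 or 12 or cytoplasmic 22, 23 or 24, HMGA1 without total 12 or cytoplasmic 21 or 23, and KRT10 without total 12.

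Base composition separated the called groups. The median G+C content of the transcript was 39.9% for 1479 coding genes higher in total RNA, 49.3% for 9309 not called and 60.1% for 1260 higher in cytoplasmic RNA. At the third codon positions the medians were 39.5%, 59.4% and 74.5%. Shown are 30 coding bases around the midpoint of the coding sequence for 4 genes of each direction, with G and C in capitals, to set letters beside these percentages (GRCh37). The first 4 genes were higher in total RNA, at chr15:91017167-91017196, plus strand, chr17:27835064-27835093, plus strand, chr6:74493479-74493508, plus strand and chr1:197159910-197159939, minus strand, and the last 4 in cytoplasmic RNA, at chr20:43552841-43552870, plus strand, chr19:54967504-54967533, plus strand, chr1:6270930-6270959, plus strand and chr14:24785372-24785401, plus strand.
IQGAP1: tatCGaGatCGCCtGCaGtaCttCCGGGaC
TAOK1: GaCaaaGatCttGaaaCtCaGCGtaaCaat
CD109: tCttGGGtGGCtaCtGGttttGtGatCtCt
ZBTB41: GaatttatttCCattaaGaaGaCtaaGaGt
PABPC1L: GatGaCGaCaaaCtGaGGaaaGaGttCtCt
LENG8: tGaCtCCCaCtCaGaCtCCGaCaGCtCCta
RNF207: GaGCtGatGGaGaGGCtGCaGGGCatCGtC
LTB4R: aCCCCaGCGaaGGGCaCCGGGCCttCCatC
The windows held 17, 11, 14 and 8 G or C bases of 30 in the first 4 genes and 13, 17, 19 and 21 in the last 4, so single windows overlap between the directions. Over the whole coding sequence the first 4 had 46.0, 44.7, 40.6 and 37.5% and the last 4 had 59.6, 62.5, 62.8 and 65.4%, which do not overlap.

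In bins of G+C content, 39.5% of the 1900 coding genes below 40% were higher in total RNA and 0.368% were higher in cytoplasmic RNA. Of the 1902 genes at 60% and over, 0.263% and 33.8% were. In each library, the median log2 CPM of genes in the upper quartile of G+C content minus that of the lower quartile was -1.54, -1.30, -1.70 and -1.55 in total RNA and -0.923, -0.906, -0.904 and -0.650 in cytoplasmic RNA (exact permutation test, two-sided p = 0.0286). Base composition, fraction and flow cell move together here, and their part in the gene results was not tested. With the G+C adjustment, 49 of 80 called genes examined were still called, and 2 of 18 uncalled genes examined were newly called. Those no longer called included ATRX, CNOT1, DDX39B, DST, LENG8, MACF1, MAL2, MT-CO1, MT-CO3, MT-CYB, NBEAL2, NDUFS8, NEAT1, OIP5-AS1, RANBP2, RSRP1, SMC4, SNHG12, SRRM2, TARBP2, VEGFA, XPO1, YJEFN3 and YWHAZ.

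Coding length differed as well. Genes higher in total RNA had a median coding sequence of 2199 bases, against 1347 for those not called and 1464 for those higher in cytoplasmic RNA. For 3′ UTRs the medians were 2381, 1091 and 522 bases. Within one band of G+C content, longer coding sequences mostly had higher ratios: below 40% the median log2 ratio was 0.23 for coding sequences under 750 bases and 0.51 for the 38 of 6000 bases and over, and from 45 to 50% it was -0.018 and 0.24. At 60% and over the medians up to 6000 bases lay between -0.38 and -0.36, with -0.22 for the longest. By 3′ UTR length alone the median log2 ratio went from -0.18 under 250 bases to 0.18 at 4000 and over, a wider span than by coding length alone (-0.044 under 750 to 0.18 at 6000 and over). The order of the spans turned with the G+C adjustment: after the G+C adjustment the median log2 ratio was 0.012 under 250 bases and 0.066 at 4000 and over, against -0.014 and 0.19 for coding sequences under 750 and of 6000 and over. Per library, the upper minus the lower quartile by coding length was 0.801, 0.762, 0.793 and 0.801 in total and 0.661, 0.655, 0.707 and 0.671 in cytoplasmic RNA (log2 CPM, exact permutation test, two-sided p = 0.0286).

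**Figure D4:**
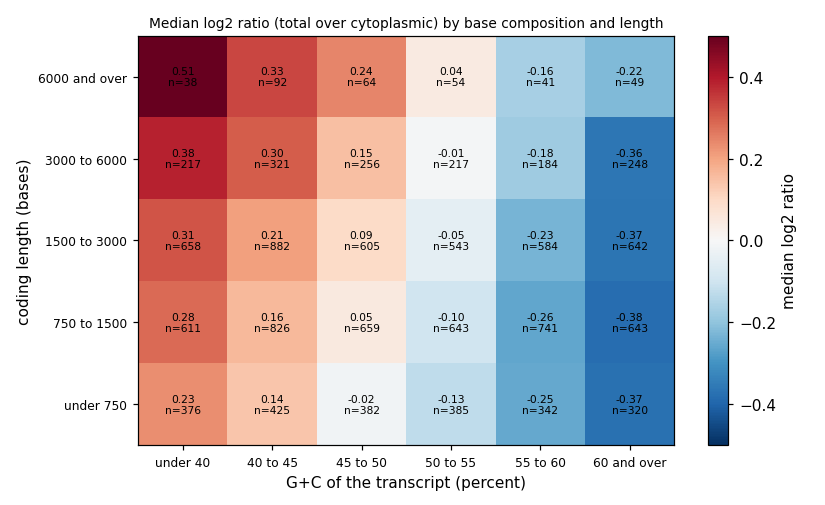
Median log2 ratio of total over cytoplasmic RNA for 12048 coding genes, by transcript G+C content (x axis, percent) and coding length (y axis, bases), with the number of genes in each cell. Values fall from left to right in every length band, from 0.51 to -0.22 in the longest.

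MicroRNAs act on 3′ UTRs through their seed, bases 2 to 8. Matches to the seeds of 10 miRNAs were counted; their levels were not measured. Shown with the seed in capitals, from RefSeq (GRCh38.p14), are the miRNAs with the highest and second highest share of matched genes in total RNA, the one with the lowest share in cytoplasmic RNA, and let-7a-5p, with the lowest share in total RNA.
miR-200b-3p: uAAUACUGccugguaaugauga
miR-203a-3p: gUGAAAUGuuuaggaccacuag
miR-21-5p: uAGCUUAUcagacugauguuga
let-7a-5p: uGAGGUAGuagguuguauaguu
A perfect match to the miR-200b-3p seed was present in the 3′ UTR of 36.8% of genes higher in total RNA, 16.1% of those not called and 5.63% of those higher in cytoplasmic RNA. For let-7a-5p the shares were 13.4%, 9.87% and 8.81%. Per kilobase of 3′ UTR of at least 100 bases the 10 seeds together had medians of 1.097, 0.904 and 0.355 matches. The upper quartiles were alike, at 1.67, 1.64 and 1.64, so the groups overlapped widely. The groups also differ in 3′ UTR length and base composition, as given above, and no test was made of these shares.

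Whether the fraction ratio of A-431 differed from those of the other lines was tested as an interaction, at an adjusted p under 0.05, with 1 U-2 OS cytoplasmic library left out, whose read total is not in the study's table of reads (the study discarded 1 library). Against U-251MG, 24 genes of 19948 had a higher ratio in A-431 (0.12%) and 8 a lower one (0.0401%), 0.16% in all. Against U-2 OS these were 189 (0.947%) and 233 (1.17%), 2.12% in all. With all 24 libraries the U-2 OS counts were 159 and 78. Both contrasts share the A-431 libraries. The 22 genes called against both lines with the same sign were 17 above and 5 below. Among the 17 were the cortex and membrane skeleton genes IQGAP1, SPTBN1, MACF1, PLEC, SPTAN1, FLNA and VCL, the matrix genes FN1, TNC, COL4A1, COL4A2 and LAMB1, and SON, GANAB and MYEF2. MYEF2 was near the floor in A-431, at a mean log2 CPM of -0.089. The 7 genes described next were named by a rule on the smaller of both differences, and the others were listed after their values were seen.

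SPTBN1 had the largest smaller difference among those of at least 3 log2 CPM, 1.63 ± 0.12 (adjusted p = 2.5e-10) over U-251MG and 2.21 ± 0.12 (adjusted p = 6.9e-14) over U-2 OS on the log2 scale. Its own ratios were 0.45 (U-251MG) and -0.14 (U-2 OS). PLEC, the plakin plectin, had ratios of opposite sign in that model: 0.54 for A-431, -0.69 for U-251MG and -0.74 for U-2 OS, a difference of 1.23 ± 0.14 (adjusted p = 1.3e-05) and 1.28 ± 0.14 (adjusted p = 6.1e-06). For IQGAP1 the differences were 1.1002 ± 0.12 (adjusted p = 5.5e-06) and 2.66 ± 0.13 (adjusted p = 1.0e-14), although the ratio in U-251MG itself was 1.93. SPTAN1 exceeded U-251MG by 1.09 ± 0.12 (adjusted p = 5.5e-06) and U-2 OS by 1.15 ± 0.13 (adjusted p = 2.9e-06). Of the spectrin, plakin, filamin and myosin list, 8 of 38 had a higher ratio in A-431 than in U-251MG and 12 than in U-2 OS, with none lower. These counts include IQGAP1 and FLNA, named above, so they are not separate from those genes.

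The 5 genes with a lower ratio than both lines were HOXB3, PCGF3, SRSF5, FN3K and ZEB2. FN3K and ZEB2 were near the floor in A-431, at mean log2 CPM of 0.27 and -0.48. HOXB3, a homeobox factor, was at 8.45, 6.91, 10.3 and 7.01 CPM in total and 13.9, 13.7, 15.1 and 13.8 in cytoplasmic RNA of A-431, and its ratio minus that of U-251MG was -0.67 ± 0.13 (adjusted p = 0.010) and minus that of U-2 OS -0.93 ± 0.13 (adjusted p = 0.00011). SRSF5, an SR splicing factor, was at 191, 175, 220.5 and 191 CPM against 257, 249.7, 260.1 and 253, with differences of -0.48 ± 0.084 (adjusted p = 0.0044) and -0.42 ± 0.087 (adjusted p = 0.0060), and PCGF3, a Polycomb RING finger protein, with -0.38 ± 0.080 (adjusted p = 0.028) and -0.50 ± 0.086 (adjusted p = 0.00091). NEAT1 was not called in either contrast: its ratio was -1.34 (U-251MG) and -0.55 (U-2 OS).

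**Figure D5:**
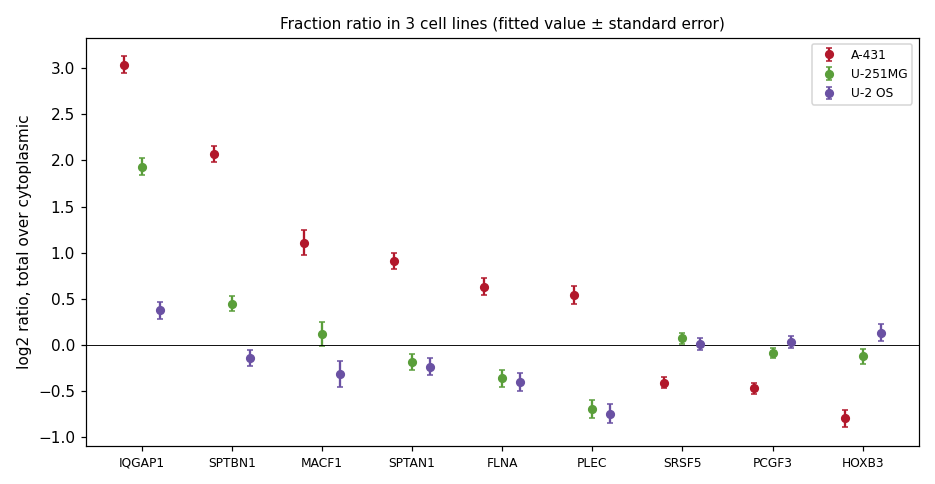
Fitted log2 ratio of total over cytoplasmic RNA with its standard error for 9 genes in A-431, U-251MG and U-2 OS, from one model over all groups. In 6 membrane-skeleton genes the A-431 value is above both other lines, and in SRSF5, PCGF3 and HOXB3 it is below both.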

How the data were processed

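Poly(A)+ RNA of A-431 was sequenced from 4 total and 4 cytoplasmic extractions. The study's methods describe RNeasy extraction with a detergent lysis for the cytoplasm and single reads, while the labels name Trizol and paired-end libraries, and this was not settled. The authors mapped reads with TopHat 1.1.4 to hg19 (GRCh37), used SAMtools 0.1.8 and deposited HTSeq 0.4.6 counts per Ensembl gene, without strand, so reads of overlapping antisense genes cannot be told apart. They also deposited RPKM values, whose scale did not match length- and depth-scaled counts and differed from gene to gene, so no RPKM level is given. Rows that name no gene, 26.7 to 29.8% of the alignments in each A-431 file, were left out of library sizes.

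Counts were filtered (filterByExpr) and tested with edgeR 4.0.16 (TMM, quasi-likelihood, robust, R 4.3.3) at an adjusted p under 0.001, and interactions in one model over all groups at 0.05. DESeq2 1.42.0, limma 3.58.1 on log2(RPKM + 0.1) and other settings were alternatives. On simulated counts for these 16376 genes the test recovered 63 of 100 genes changed by log2 0.5 and 95 of 100 changed by log2 1, and called 0 of 16176 unchanged genes. Transcript features came from GENCODE v44lift37. Genes were named by a rule: per direction the 12 called coding genes of largest ratio without overlap of libraries and with a mean log2 CPM from 3 up, the 6 most abundant, for each list up to 3 most abundant and 2 called members, and 5 per direction from the interactions, plus MALAT1, NEAT1 and EGFR. The lists and members were chosen with earlier results of these data known, and some genes that the rule gives are not reported here.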

Additional observations from a re-analysis of the deposited data

Results flagged for a closer look

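In 16 of 208 groups of 4 libraries examined, 1 library lay apart from the other 3 beyond the 95% limit of Dixon's ratio, which chance gives in about 5% of groups. Total 11 was the one for DDX39B (84.4 CPM), GABBR1 (15.3 CPM), MT-CYB (2432 CPM), MT-ND4 (7748 CPM), NEAT1 (318 CPM) and PABPC1L (16.5 CPM). Total 10 stood apart for CD109 (284 CPM) and RPS6 (914 CPM). Total 12 stood apart for VIM (4.41 CPM). Cytoplasmic 22 stood apart for TAOK1 (45.7 CPM). Cytoplasmic 23 stood apart for ADAM17 (39.4 CPM) and HOXB3 (15.1 CPM). Cytoplasmic 24 stood apart for CANX (821 CPM), KRT13 (4132 CPM) and RPS6 (976 CPM). In cytoplasmic 24 the G+C-rich minus G+C-poor contrast was -0.65 against -0.92 to -0.90 in the other cytoplasmic libraries.

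The fraction ratio of A-431 differed from the other lines by the interaction test in 7 genes named above. On the log2 scale the A-431 ratio minus that of U-251MG was 1.1002 for IQGAP1, 1.63 for SPTBN1, 1.09 for SPTAN1 and 1.23 for PLEC, and minus that of U-2 OS it was 2.66 for IQGAP1, 2.21 for SPTBN1, 1.15 for SPTAN1 and 1.28 for PLEC. On the log2 scale the A-431 ratio minus that of U-251MG was -0.67 for HOXB3, -0.38 for PCGF3 and -0.48 for SRSF5, and minus that of U-2 OS it was -0.93 for HOXB3, -0.50 for PCGF3 and -0.42 for SRSF5.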

How the results depend on the processing

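The count of genes higher in total RNA was 908 with the G+C adjustment, 200 on RPKM with limma, 4087 at an adjusted p under 0.05, 2962 under 0.01 and 289 with a log2 ratio of at least 0.5, and it ranged from 902 to 2062 with 1 library left out. Higher in cytoplasmic RNA, the same settings gave 586, 55, 4196, 2908 and 927, with 2772 without the filter on low counts and 913 to 1812 with 1 library left out. The median SD of log2 RPKM among total libraries was 0.176 against 0.108 for log2 CPM. DESeq2, RLE scaling, thinning and the model over all groups kept both counts within 1.5 times of the reported ones. So did leaving out total 10 and 11 together (1166 and 1157), chosen after the data were seen because they lie apart on the second principal component. Against U-251MG the counts higher and lower ranged over 15 to 26 and 4 to 12 with 1 A-431 library left out, were 6 and 0 at an adjusted p under 0.001, and the lower count was 5 with all 24 libraries. Against U-2 OS the ranges were 110 to 264 and 128 to 298, with 23 and 15 at 0.001 and 78 lower with all 24 libraries. With 1 library left out no exact test can go below 0.0571. The differences then ranged from -1.95 to -1.51 points for reads not wholly within exons and -946 to -730.1 genes detected. They were -2.72 to -2.14 points for mitochondrial counts, 0.11 to 0.13 for the length contrast and -0.75 to -0.61 for the G+C contrast. With the G+C adjustment HMGA1 (0.064) and KRT81 (0.044) turned direction, 49 of 80 called genes checked were still called, and 10 of 45 list medians changed sign; the cause was not tested. With the study's replicate number as a block the counts were 2148 and 2145. Same-number libraries correlated at 0.021, 0.078, 0.21 and 0.018, and 4 of 8 libraries correlated best with their own number. Whether the numbers pair the libraries was not settled, and the reported fit used no block.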

Other observations

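CNRIP1, chosen after its values were seen, had a log2 ratio of 4.04 ± 1.25 that was not called (adjusted p = 0.036). It was at 16.4, 23.3, 229.9 and 127 CPM in total 9 to 12 and 0.978, 0.767, 10.8 and 12.1 in cytoplasmic 21 to 24. In both fractions the study's replicate numbers 3 and 4 (total 11 and 12, cytoplasmic 23 and 24) were the higher ones. More genes were detected with at least 1 count in each cytoplasmic library (22749, 22806, 22763 and 22513) than in each total library (21747, 21629, 22276 and 21910.0), and the difference stood after thinning to one depth (22095, 22220.0, 22308 and 22142 against 21648, 21629, 21660.0 and 21857; exact permutation test, two-sided p = 0.0286).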
